A study of Rattus norvegicus with 9 samples.

Results

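Cells answer unfolded protein in the endoplasmic reticulum (ER) and shortage of amino acids with linked programmes known as the unfolded protein response and the integrated stress response. The 10 transcripts described here mark these programmes: the ER sensors Eif2ak3, Ern1 and Atf6, the transcription factors Atf4, Xbp1 and Ddit3, and the response genes Trib3, Chac1, Asns and Herpud1. They were taken by gene symbol from a table of 18964 genes, and all 10 were found, passed the filter on low counts and were tested among 14643 genes.

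PERK, the product of Eif2ak3, phosphorylates the initiation factor eIF2, which slows translation of most messages while that of Atf4 goes on. ATF4 and CHOP, the product of Ddit3, then act on genes of amino acid supply, redox balance and cell death. IRE1, the product of Ern1, splices the Xbp1 message, and ATF6 is cut in the Golgi to release a transcription factor, so both of these arms, like the phosphorylation of eIF2, work through steps that gene-level counts do not measure.

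The study set out from water-immersion stress, a standard way to induce gastric ulceration in rats, and asked how a herbal decoction acts on the gastric lymphatic vessel, the duct that drains lymph from the stomach wall. Male wild-type Sprague-Dawley rats, 6 in each group of the study, were all fasted for 12 h. Control rats had no immersion, whereas model and BXD rats were kept for 4 h in water 15 cm deep at 22 °C. At 30 min after that step the BXD group received Banxia Xiexin decoction (BXD) by gavage at 10 ml/kg, and the model group received vehicle, given as saline in one label and as distilled water in another. The treatment protocol gives control rats the same volume of distilled water, while their own label reads blank. The sources used here do not give the time from gavage to collection. Poly(A) RNA of the vessel was sequenced in 9 libraries, 3 per group, which the labels do not tie to single rats. The p-values below therefore measure the spread between libraries, which may be technical.

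Total estimated counts lay between 12313813 and 13455705 per library, so depth hardly differed. Markers of several tissues were present. Summed over 9 marker genes of lymphatic endothelium, the level was 610 to 659 TPM (transcript abundance scaled for gene length and to a common library total) in control, 336 to 706 in model and 601 to 765 in BXD libraries. The sum over 12 adipocyte markers was far higher, at 13516 to 16517, 22518 to 39336 and 16621 to 24837 TPM in the same order, and all 12 rose in model against control. The sum over 10 smooth muscle markers was 4267 to 6537, 1392 to 2857 and 5171 to 7692 TPM, and 6 of the 10 fell in model. Gastric mucosa markers summed to 1.07 to 8.27 TPM over all libraries. A list of 10 skeletal muscle genes, added after the values were seen, summed to 28.4 to 345 TPM in control and model, to 6043 in BXD replicate 1 and 3680 in BXD replicate 3, and to 75.5 in BXD replicate 2, with 0 of the 10 genes at 0 in any library. On the second principal component these libraries, BXD replicates 1 and 3, scored -55.3 and -42.7, against 4.98 for BXD replicate 2. In bulk RNA of this kind, fewer cells of a type and less RNA per cell cannot be told apart. The part of tissue make-up in the differences below was not tested.

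Per unit length the members covered a wide range of abundance. Averaged over the 9 libraries, Atf4 had the highest level at 378 TPM, followed by Xbp1 at 142, Herpud1 at 75.1, Asns at 57.8, Ddit3 at 39.9, Atf6 at 20.6, Eif2ak3 at 13.0, Ern1 at 8.20, Trib3 at 5.07 and Chac1 at 1.89 TPM. Only the top of this order was free of overlap: Atf4 spanned 287 to 579 TPM, Xbp1 111 to 168 and Herpud1 59.7 to 95.8, and from Herpud1 down each gene's range over the 9 libraries overlapped that of its neighbour. Ddit3 and Asns changed places between groups. In control libraries Ddit3 lay at 60.5 to 65.1 TPM and Asns at 41.1 to 49.7. In model libraries Ddit3 lay at 23.1 to 26.7 and Asns at 57.3 to 96.8, and in BXD libraries the ranges were 25.2 to 39.2 and 47.4 to 61.4. Ddit3, the gene of CHOP, was thus the more abundant of this pair in all 3 control libraries and the less abundant in all 6 others.

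Promoters of these genes carry short elements through which the response is classically described. RefSeq windows on build GRCr8 were at hand for 8 of the 10 members, and the 250 bases before the annotated start were searched on both strands for 4 elements. The ER stress response element (ERSE: CCAAT, 9 free bases, CCACG) was present in 0.0657% of 33469 such windows, and the related ERSE-II (ATTGG, 1 free base, CCACG) in 0.0418%. The unfolded protein response element (UPRE: TGACG followed directly by TGG) was present in 0.52%, and the C/EBP-ATF response element (CARE: TGATG, 1 free base, AA), bound by ATF4, in 3.4%. In the members no matches to different elements overlapped. The 4 windows with a match are shown because they set the ER elements of Xbp1 and Herpud1 beside the ATF4-type elements of Trib3, Chac1 and Herpud1. Each is written 5′ to 3′ on the strand of its gene, ends at the base before the start, and has matched elements in capitals.
Xbp1: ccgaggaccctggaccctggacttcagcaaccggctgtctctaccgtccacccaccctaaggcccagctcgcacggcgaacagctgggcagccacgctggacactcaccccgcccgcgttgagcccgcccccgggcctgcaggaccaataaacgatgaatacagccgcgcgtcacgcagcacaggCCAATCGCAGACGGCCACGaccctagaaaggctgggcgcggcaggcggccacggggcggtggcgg
Herpud1: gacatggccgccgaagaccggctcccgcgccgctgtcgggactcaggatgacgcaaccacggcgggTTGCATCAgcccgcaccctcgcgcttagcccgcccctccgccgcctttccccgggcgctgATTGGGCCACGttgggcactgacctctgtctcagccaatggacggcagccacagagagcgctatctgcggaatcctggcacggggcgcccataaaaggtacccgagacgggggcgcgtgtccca
Trib3: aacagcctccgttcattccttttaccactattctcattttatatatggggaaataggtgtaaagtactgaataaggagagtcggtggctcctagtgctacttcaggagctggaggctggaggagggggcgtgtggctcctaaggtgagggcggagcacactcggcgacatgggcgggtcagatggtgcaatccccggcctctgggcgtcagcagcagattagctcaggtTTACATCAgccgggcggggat
Chac1: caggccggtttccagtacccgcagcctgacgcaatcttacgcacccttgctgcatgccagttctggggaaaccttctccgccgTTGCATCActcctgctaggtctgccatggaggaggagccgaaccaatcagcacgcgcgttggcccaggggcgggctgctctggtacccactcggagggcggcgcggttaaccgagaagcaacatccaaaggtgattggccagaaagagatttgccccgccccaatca
The Xbp1 window (chr14:84604373-84604622, plus strand) held an ERSE at bases -65 to -47 from the start. The Herpud1 window (chr19:10614708-10614957, minus strand) held an ERSE-II at -124 to -114 and a CARE, on the strand opposite to the gene, at -184 to -177. The Trib3 window (chr3:161275534-161275783, minus strand) and the Chac1 window (chr3:126795881-126796130, plus strand) each held a CARE on the opposite strand, at -21 to -14 and at -167 to -160. UPRE matched in 0 members, and the windows of Eif2ak3, Atf4, Ddit3 and Asns had no match to the 4 elements in these 250 bases. Atf6 and Ern1 were not searched. A match is a description of letters only.

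After water immersion the stress genes did not move as one. Model libraries had more Atf4, Trib3, Asns, Herpud1, Atf6 and Ern1 than control libraries, with folds of 1.41 for Ern1 to 2.35 for Trib3, and less Ddit3 and Eif2ak3, which were 1.85-fold and 1.42-fold lower. Xbp1 and Chac1 did not pass the test. Differences were tested with edgeR's quasi-likelihood test over all genes, and a gene is called where its Benjamini-Hochberg adjusted p is under 0.05. By this rule 6 of the 10 members rose, where 21.6% of all tested genes did, and 2 fell, where 20.6% did, so 8 of 10 were called against 42.2% of all genes. The members were chosen with earlier results of these data known, so shares set beside all genes, here and below, are descriptions only. The 2 groups of 3 libraries did not overlap for 9 members, 6 higher and 3 lower in model, where 58.3% of all tested genes showed no overlap. The median log2 fold change was 0.52 over the members and -0.01 over all tested genes.

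**Figure D1:**
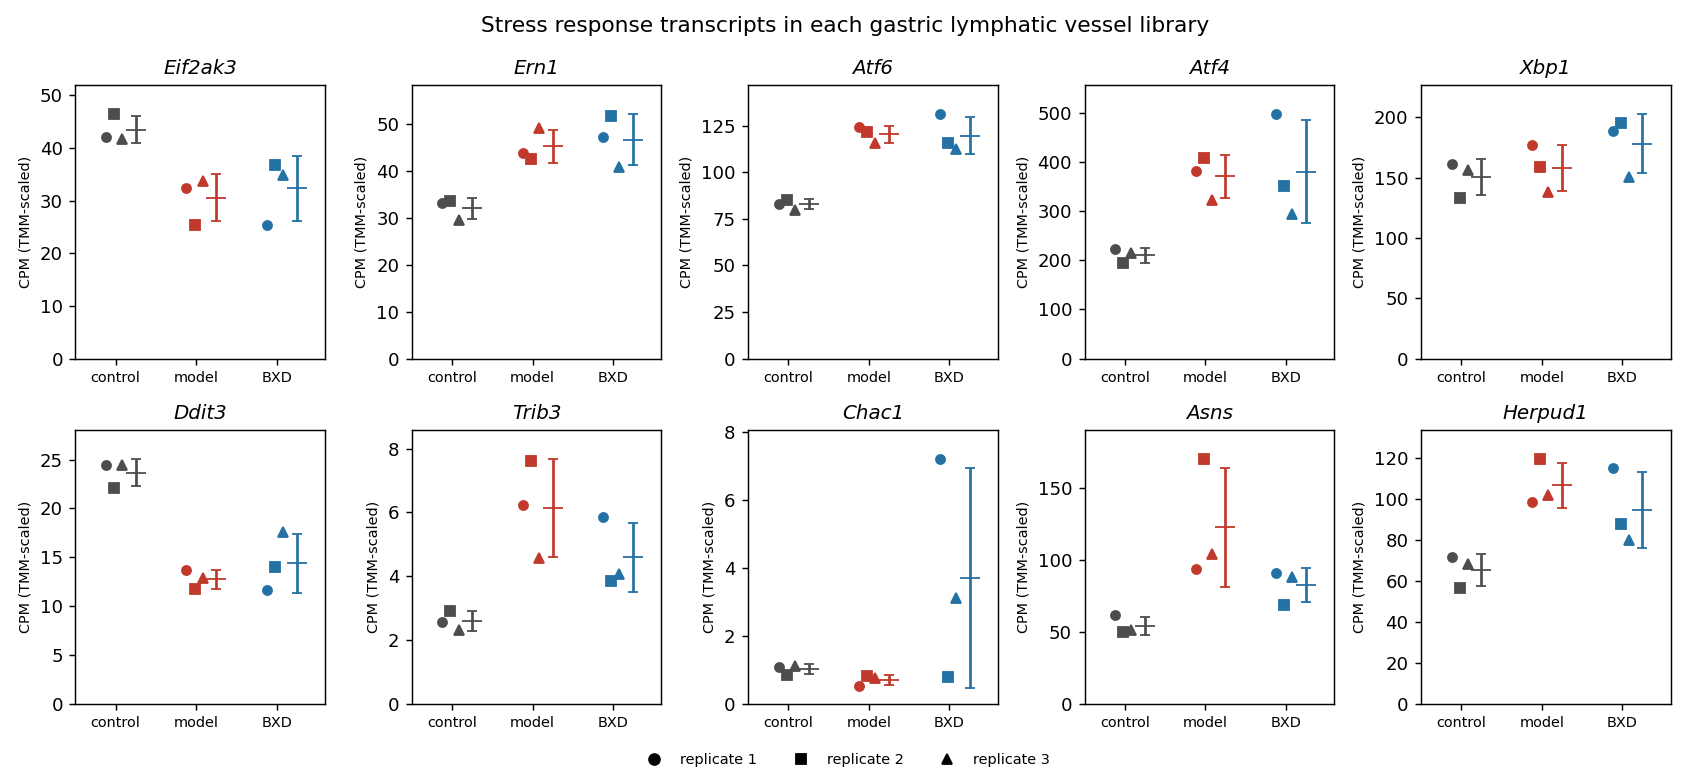
Level of each of the 10 transcripts in each library, in CPM with TMM scaling (trimmed means of M-values, which corrects library sizes for composition), on linear axes from 0. Points are libraries by group and replicate, and the bar beside them is the mean ± SD of 3. All model libraries lie above all control libraries for Ern1, Atf6, Atf4, Trib3, Asns and Herpud1 and below them for Eif2ak3, Ddit3 and Chac1, while Xbp1 overlaps.

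Of the sensors, Eif2ak3 was lower and the other two were higher. Eif2ak3 (chromosome 4, 98648513 to 98709695, plus strand, on Rnor_6.0 as are all gene positions here) had 42.2, 46.4 and 41.8 CPM (counts scaled to a common library total, here with TMM) in control replicates 1 to 3, 32.5, 25.4 and 33.8 in model and 25.4, 36.8 and 34.8 in BXD. Every control library was above every other library. The log2 fold change in model was -0.51 (SE 0.16, edgeR adjusted p 0.0322), from 43.5 ± 2.58 to 30.6 ± 4.49 CPM (SD, n = 3). This call was lost when any single control library, model replicate 1 or model replicate 2 was left out, with log2 fold changes between -0.55 and -0.39.

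Ern1 (chromosome 10, 94588555 to 94682072, minus strand) had 33.0, 33.6 and 29.4 CPM in control, 43.7, 42.6 and 49.1 in model and 47.3, 51.6 and 40.8 in BXD. Atf6 (chromosome 13, 89053457 to 89242531, minus strand) had 83.3, 85.4 and 80.1 CPM in control, 124, 122 and 116 in model and 131, 116 and 112 in BXD. For both genes the control libraries were the lowest 3 of the 9. Ern1 rose by 0.50 on the log2 scale in model (SE 0.12, edgeR adjusted p 0.00997) and Atf6 by 0.54 (SE 0.09, edgeR adjusted p 0.00252). The size of these rises rests on the scaling. In TPM, with no correction for composition, Ern1 averaged 7.63 in control and 7.90 in model, and Atf6 19.1 and 20.3. With library size alone Ern1 was not called (0.23, adjusted p 0.193), beside an all-gene median of -0.28 under the same scaling. Left without control replicate 3, Ern1 missed the threshold at an adjusted p of 0.0505.

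Of the transcription factors, Atf4 rose, Ddit3 fell and Xbp1 was not called. Atf4 (chromosome 7, 121480455 to 121482781, plus strand), the central factor of the integrated stress response, had 222, 193 and 214 CPM in control, 382, 408 and 323 in model and 497, 351 and 294 in BXD. All 6 immersed libraries exceeded all 3 controls, and BXD replicate 1 was the highest. Atf4 rose 1.77-fold in model (log2 0.82, SE 0.19, edgeR adjusted p 0.00831), from 210 ± 14.9 to 371 ± 43.8 CPM (SD, n = 3).

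Ddit3 (chromosome 7, 70578564 to 70585074, plus strand) encodes CHOP, a pro-apoptotic factor induced downstream of ATF4. It had 24.4, 22.1 and 24.5 CPM in control, 13.7, 11.7 and 12.8 in model and 11.6, 14.0 and 17.6 in BXD. The controls were the highest 3 libraries, with a gap to the next. Ddit3 fell by 0.89 on the log2 scale in model (SE 0.16, edgeR adjusted p 0.00339), from 23.7 ± 1.37 to 12.7 ± 0.97 CPM (SD, n = 3), and it was called lower under all 19 other settings tried.

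Xbp1 (chromosome 14, 85753736 to 85758820, plus strand), the substrate of IRE1, had 161, 133 and 156 CPM in control, 177, 159 and 138 in model and 189, 196 and 151 in BXD. The groups overlapped in CPM. In TPM, with no correction for composition, every model library (111 to 137) lay below every control library (143 to 164), while BXD libraries lay at 126 to 168. Its log2 fold change in model was 0.07, with a 95% interval of -0.24 to 0.39 (edgeR adjusted p 0.698), and the sign turned negative with upper quartiles, with library size alone and in both fits of FPKM (fragments scaled by length and depth). The deposited values are per gene, so the spliced and unspliced forms of Xbp1 were not told apart.

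**Figure D2:**
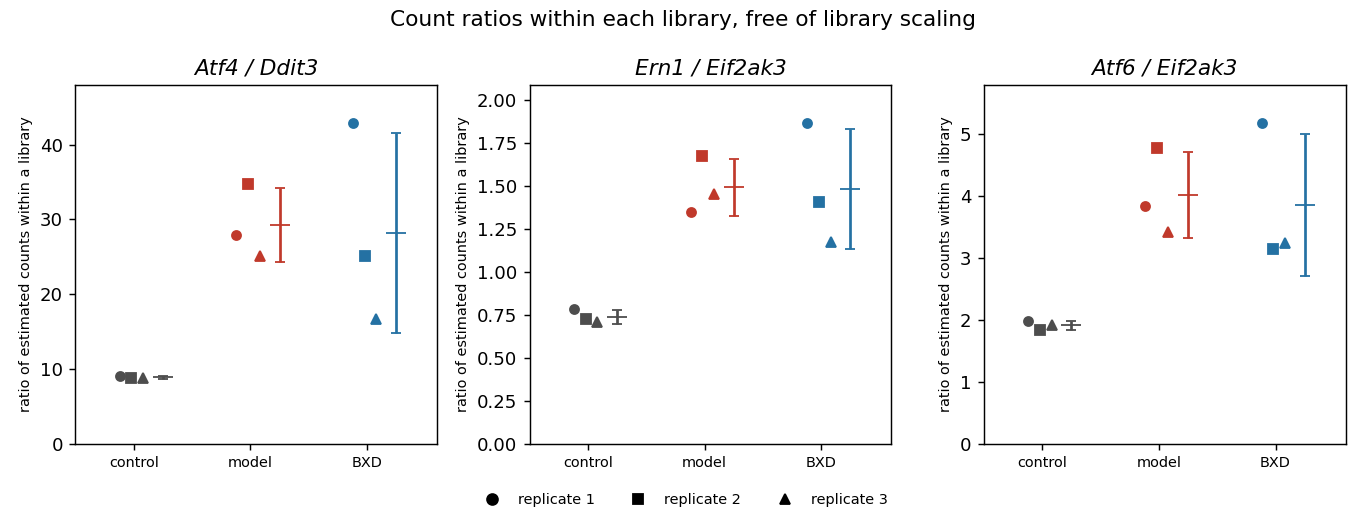
Ratio of estimated counts of 2 members within each library, which no scaling of library size affects, on linear axes from 0. Points are libraries, and bars are the mean ± SD of 3 per group. The 3 ratios drawn are higher in every model and BXD library than in any control library. Ratios of Atf4 to Trib3, Atf4 to Chac1 and Asns to Ddit3 were computed but are not drawn, and that of Atf4 to Trib3 overlapped control in both immersed groups.

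Because Atf4 and Ddit3 moved apart, their counts were set against each other inside each library, a ratio chosen after the values were seen. The counts of Atf4 per count of Ddit3 were 9.11, 8.76 and 8.75 in control, 28.0, 34.8 and 25.1 in model and 42.9, 25.1 and 16.7 in BXD libraries. The controls were tightly grouped and below all others, and the BXD libraries were the most spread. Group means were 8.88 ± 0.203, 29.3 ± 4.95 and 28.2 ± 13.4 (SD, n = 3). On the log2 scale model exceeded control by 1.71 and BXD exceeded control by 1.56. The two-sided exact permutation p was 0.1 for each, the smallest that 3 libraries against 3 can give. Every immersed library had more Atf4 and less Ddit3 than any control library. The ratio therefore had to separate these groups, and the p of 0.1 adds no support. BXD and model differed by -0.15 with an exact permutation p of 0.8. For the sensors no such test was run. Ern1 counts per Eif2ak3 count averaged 0.737 ± 0.041 in control, 1.49 ± 0.167 in model and 1.48 ± 0.350 in BXD, and Atf6 counts per Eif2ak3 count 1.91 ± 0.068, 4.01 ± 0.695 and 3.85 ± 1.15 (SD, n = 3). Of the other ratios computed, Atf4 counts per Trib3 count were 82.0 ± 13.9 in control, 61.9 ± 8.63 in model and 82.8 ± 9.75 in BXD. Both immersed groups overlapped control there. Atf4 counts per Chac1 count were 210 ± 19.2, 553 ± 156 and 204 ± 211, and Asns counts per Ddit3 count 2.28 ± 0.208, 9.80 ± 4.07 and 5.91 ± 1.63 (SD, n = 3). All these ratios compare groups and not the abundance of one gene with another.

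Of the response genes, Trib3, Asns and Herpud1 rose in model. Trib3 (chromosome 3, 147813470 to 147819650, minus strand), a pseudokinase induced by ATF4 and CHOP, rested on 33 to 85 counts per library. It had 2.56, 2.92 and 2.31 CPM in control, 6.22, 7.62 and 4.56 in model and 5.84, 3.84 and 4.08 in BXD. No control library reached any other library, and the log2 fold change in model was 1.23 (SE 0.27, edgeR adjusted p 0.0071), a 2.35-fold rise.

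Asns (chromosome 4, 33742876 to 33761106, minus strand) encodes asparagine synthetase, a classical ATF4 target of amino acid shortage. It had 61.3, 49.6 and 51.3 CPM in control, 93.4, 170 and 104 in model and 90.5, 68.7 and 88.2 in BXD. In CPM the 3 groups formed 3 separate steps, with BXD between control and model and model replicate 2 far above the rest. The highest BXD library (90.5) lay close under the lowest model library (93.4). In TPM neighbouring groups overlapped, at 41.1 to 49.7 in control, 47.4 to 61.4 in BXD and 57.3 to 96.8 in model. Asns rose 2.26-fold in model (log2 1.18, SE 0.22, edgeR adjusted p 0.00385). Model replicate 2 was also the highest library for Trib3 and Herpud1, and it had the highest sum of adipocyte markers, 39336 TPM against 22518 and 28215 in the other model libraries. Whether fat tissue had a part in these values was not tested.

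Herpud1 (chromosome 19, 11046905 to 11057440, minus strand), a membrane protein of ER-associated degradation, had 71.5, 56.6 and 68.1 CPM in control, 98.7, 119 and 102 in model and 115, 87.8 and 80.2 in BXD. Again every immersed library was above every control in CPM. In TPM, with no correction for composition, every model library (75.8 to 83.3) was above every control library (59.7 to 71.5). BXD replicate 3 (66.0) was there below control replicates 1 (71.5) and 3 (68.5). Mean levels in TPM were 66.5 in control and 79.9 in model. With TMM the rise in model was 1.63-fold (log2 0.71, SE 0.16, edgeR adjusted p 0.00757). Of the promoters shown above with an ER element, that of Herpud1 belonged to a gene that rose and that of Xbp1 to one that was not called.

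Chac1 (chromosome 3, 111160205 to 111163425, plus strand) encodes a glutathione-degrading enzyme downstream of ATF4 and was the rarest member. Its estimated counts were 15, 13 and 16 in control, 6, 9 and 10 in model and 86, 10 and 41 in BXD. Model libraries were all below control libraries, yet the log2 fold change of -0.53 (SE 0.70) had a 95% interval of -2.11 to 1.06 and an edgeR adjusted p of 0.568. No difference between model and control was called for Chac1. The test takes its spread from all libraries, those of BXD included, where the coefficient of variation of Chac1 was 87.8%. How much of the SE came from low counts and how much from the BXD libraries was not tested.

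**Figure D3:**
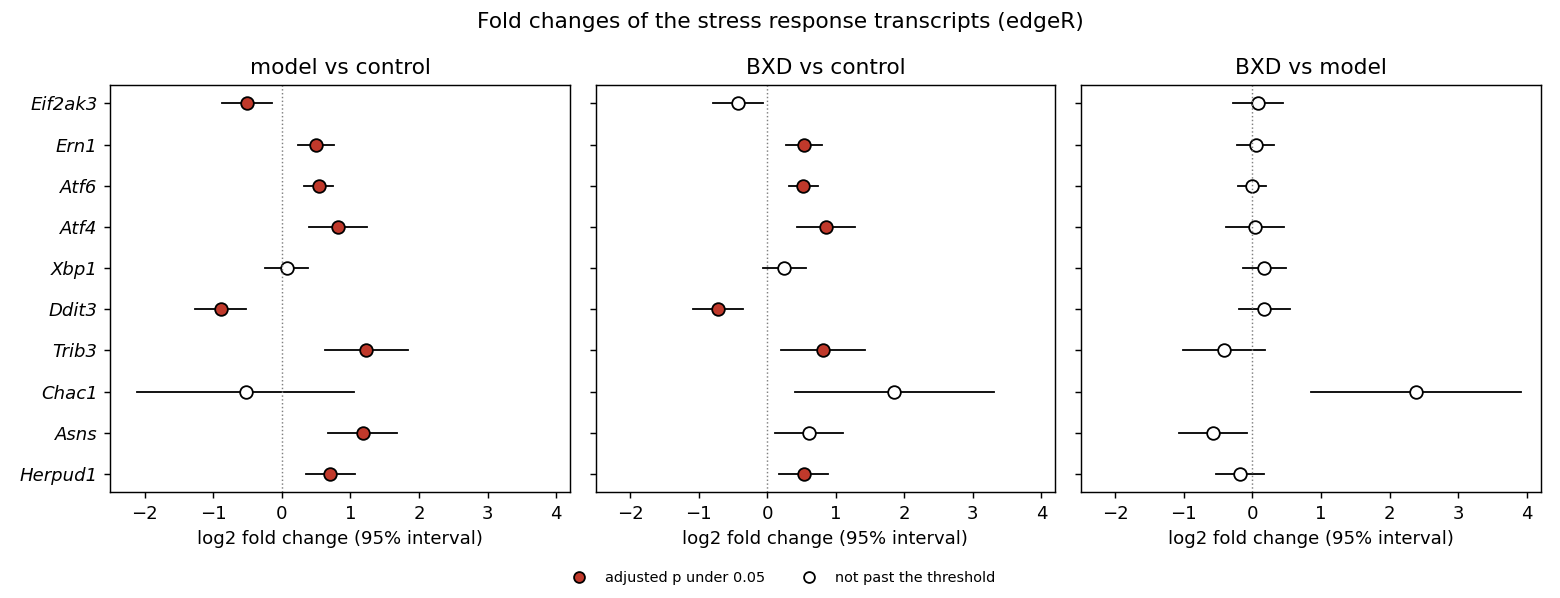
Fitted log2 fold change of each member (point) with its 95% interval (line) in the 3 comparisons from edgeR; filled points have an adjusted p under 0.05. Each pair of comparisons shares a group of libraries. In model against control 8 points are filled, in BXD against control 6, and in BXD against model 0; the Xbp1 sign in model against control turns negative under other scalings.

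The share of calls in each direction depended on the scaling. Of all genes called in model against control 51.2% were higher, and this share was 37.7% with library sizes scaled by upper quartiles, 24.8% with unscaled library sizes and 25.5% in the fit of log2(FPKM + 1), where the all-gene medians were -0.14, -0.28 and -0.22. With library size alone 5 members rose and 2 fell, where 11.1% and 33.5% of all tested genes did. In the FPKM fits 4 rose and 2 fell. Of all tested genes 11.4% rose and 33.3% fell there for log2(FPKM + 1), and 11.4% and 32.7% for log2(FPKM + 0.1). Atf6 just missed the threshold for log2(FPKM + 1), at a limma adjusted p of 0.0521.

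The rest of the pathway was followed in 8 lists with 134 further genes, of which 131 were tested. In model 38 rose and 11 fell, so 37.4% were called, no larger a share than the 42.2% over all genes. By direction 29% rose and 8.4% fell, beside 21.6% and 20.6% of all tested genes, a split that depended on the scaling as given below. Among 17 genes of amino acid supply linked to ATF4, 7 rose and 2 fell, with a median log2 fold change of 0.81. Slc7a5, an amino acid transporter, rose from 12.2 ± 0.981 to 48.2 ± 2.91 CPM (SD, n = 3), a 3.96-fold rise with an edgeR adjusted p of 0.000358. Psat1, of serine synthesis, rose 2.46-fold, whereas the glycine transporter Slc6a9 and Aldh18a1, of proline synthesis, fell by 0.87 and 0.81 on the log2 scale. Slc6a9 lost its call without control replicate 2 or model replicate 2, and Aldh18a1 without control replicate 1 or model replicate 2 or 3. Among 12 ATF4-linked transcription factors and stress regulators, 3 rose and 1 fell (median 0.23). The secreted glycoprotein gene Stc2 rose 3.98-fold from a low level of 0.431 ± 0.196 CPM, Cebpg, a partner of ATF4, rose 1.57-fold, and the lipoprotein receptor gene Vldlr was 1.59-fold lower.

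Among 15 genes of eIF2, its kinases and its phosphatase, 4 rose and 0 fell (median 0.35), so 26.7% rose, beside 21.6% of all tested genes. Eif2s2 and Eif2s3, subunits of eIF2, rose 1.78-fold and 1.46-fold, and the Eif2s3 call was lost with library size alone (0.27, adjusted p 0.0962). ER-associated degradation, which removes misfolded protein from the ER and includes the pathway of Herpud1, had 10 of 20 genes higher and 1 lower (median 0.28), beside 21.6% of all tested genes higher and 20.6% lower. Ube2g2, a ubiquitin-conjugating enzyme, rose 2.59-fold and Edem1, which extracts misfolded glycoproteins, 2.18-fold, whereas Syvn1, the ubiquitin ligase of the same complex as HERPUD1, was 1.51-fold lower. The Syvn1 call was lost when any single control or model library was left out, with adjusted p between 0.0551 and 0.0948.

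Of 22 ER chaperones and folding enzymes, 1 rose and 2 fell, so 13.6% were called, beside 42.2% of all tested genes, with a median of 0.04. Hspa5, the gene of the main ER chaperone BiP, chosen after its values were seen, had 618 ± 121 CPM in control and 732 ± 105 in model (SD, n = 3), which differed by 0.25 on the log2 scale (SE 0.19, edgeR adjusted p 0.312). The groups overlapped, with control replicate 1 at 752 CPM above model replicate 3 at 614. Txndc11, a thioredoxin-domain protein, rose 1.34-fold, Ero1b, an ER oxidase, was 1.45-fold lower and Creld2 1.47-fold lower; Txndc11 lost its call under upper quartiles, library size alone, the FPKM fits and no filter, and when any single library other than control replicate 1 and BXD replicates 1 and 3 was left out. Ero1b lost its call without control replicate 1, and Creld2 without control replicate 1 or 3 or any model library.

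Of 19 genes of ER import and export, 6 rose and 1 fell (median 0.20), so 36.8% were called, beside 42.2% of all tested genes. Sec63, of the translocation channel, rose 1.69-fold and Sec23b, a coat protein of export vesicles, 1.5-fold, while Kdelr3, a retrieval receptor, was 1.43-fold lower, a call lost without control replicate 1 or 3 or model replicate 2 or 3. Of 9 tested genes around ATF6 processing, 1 rose and 3 fell (median -0.25), so 44.4% were called. Tmbim6, an ER membrane protein, rose 1.67-fold, whereas Creb3l2, a related membrane-bound factor, was 2.42-fold lower and Atf6b, the paralogue of Atf6, 1.35-fold lower. Of 17 genes of IRE1 and CHOP output and cell death, 6 rose and 1 fell (median 0.40), so 41.2% were called. Pmaip1, the gene of the apoptosis factor NOXA, rose 4.36-fold from 4.24 ± 0.331 to 18.5 ± 5.32 CPM, Rtcb, the ligase that joins spliced Xbp1, rose 1.79-fold, and Casp12 was 2.02-fold lower.

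These counts and medians depended on the scaling. With upper quartiles, then with library size alone, the counts of higher and lower genes were 4 and 0, then 2 and 2, for eIF2 and its kinases. For ER-associated degradation they were 7 and 2 under both, for ER import and export 2 and 1, then 2 and 3, and for chaperones 0 and 5, then 0 and 8. They were 7 and 3 under both for amino acid supply, 3 and 2, then 3 and 3, for the transcription factors, 1 and 5 under both for ATF6 processing, and 5 and 2, then 3 and 3, for IRE1 and CHOP output. The lists of ATF6 processing and of chaperones had more lower than higher calls with TMM and under each of these scalings. Those of amino acid supply and of ER-associated degradation had more higher than lower calls throughout. Of all tested genes 16.2% were called higher and 26.8% lower with upper quartiles, and 11.1% and 33.5% with library size alone.

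With library size alone the medians of the transcription factors, of ER import and export and of chaperones were negative (-0.04, -0.07 and -0.23). The all-gene median was then -0.28. In the fit of log2(FPKM + 1) that of ER-associated degradation was -0.01, beside -0.22 for all genes. The transcription factors stood 0.25 above the all-gene median with TMM and 0.24 with library size alone, and ER import and export 0.21 under both. ER-associated degradation stood 0.30 above it with TMM and 0.21 in the fit of log2(FPKM + 1). The median for amino acid supply was 0.81 with TMM, 0.53 with library size alone and 0.31 in the fit of log2(FPKM + 1), which stood 0.82, 0.82 and 0.53 above the all-gene median. For chaperones this gap was 0.05, 0.05 and -0.0099. With library size alone 25 of the 131 wider pathway genes rose and 29 fell, where 11.1% of all tested genes rose and 33.5% fell.

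**Figure D4:**
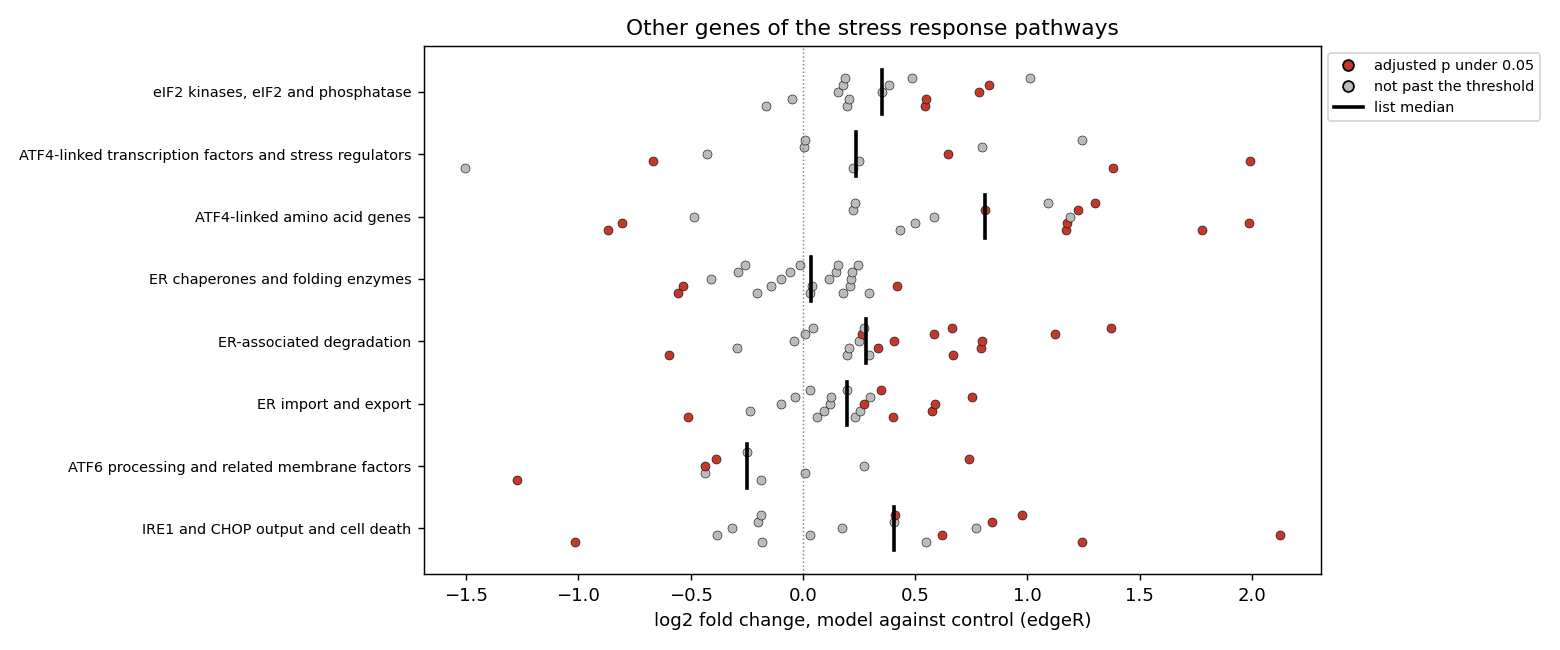
Log2 fold change in model against control (edgeR) of each of the 131 further pathway genes, by list; filled red points have an adjusted p under 0.05, and the vertical bar is the list median. The list of amino acid genes has the highest median, 0.81, and chaperones sit around 0.04. The transcription factor, ER import and export, and chaperone medians turn negative with library size alone, where the all-gene median is -0.28. That of ER-associated degradation turns negative in the FPKM fits, where the all-gene medians are -0.22 and -0.27.

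Banxia Xiexin decoction was compared with vehicle after the same immersion. No member was called between BXD and model: 0 of 10, where 0.0615% of all tested genes (9 of 14643) were called by edgeR's test. At an unadjusted p under 0.05 there were 2 members, Chac1 and Asns, where 20.9% of all tested genes passed that mark. The groups did not overlap in CPM for 1 member, Asns, where 22.4% of all genes did not, and in TPM they overlapped for Asns. The members' median log2 fold change was 0.04.

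Asns was lower in BXD, at 82.5 ± 12.0 CPM against 122 ± 41.2 in model (SD, n = 3). The log2 fold change was -0.57 (SE 0.22, 95% interval -1.06 to -0.07, edgeR adjusted p 0.190). The sum of adipocyte markers was 16621 to 24837 TPM in BXD and 22518 to 39336 in model, and its part in the Asns value was not tested.

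Relative to its mean Chac1 had the widest spread of any member in BXD (coefficient of variation 87.8%), at 7.18, 0.785 and 3.09 CPM, against 0.526 to 0.806 in model. Its log2 fold change was 2.38 (SE 0.68, 95% interval 0.85 to 3.91, edgeR adjusted p 0.125), and DESeq2, an alternative count test, called it at an adjusted p of 0.0215, the 1 member of 10 it called, where it called 4.39% of all tested genes higher and 3.32% lower. The value rested on BXD replicates 1 and 3, the libraries with high levels of skeletal muscle transcripts. BXD replicate 2, with a sum of 75.5 TPM over the skeletal muscle genes, had a Chac1 level within the model range. As the only BXD library kept in the fit it gave a log2 fold change of 0.17, a value whose test takes its spread from the control and model libraries alone. Without BXD replicate 1 the log2 fold change was 1.46, and without BXD replicate 2 it was 2.86 and called by edgeR (adjusted p 0.0379). Across the 9 libraries the gene whose log2 CPM followed Chac1 most closely was Myom1, which encodes a protein of the M-band of striated muscle (Pearson r 0.990 over 9 libraries that share these 2 high points, a description). Myom1 had 71.7, 10.6 and 36.8 CPM in BXD and 6.04 to 14.0 in control and model. The part of muscle RNA in the Chac1 value was not tested.

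**Figure D5:**
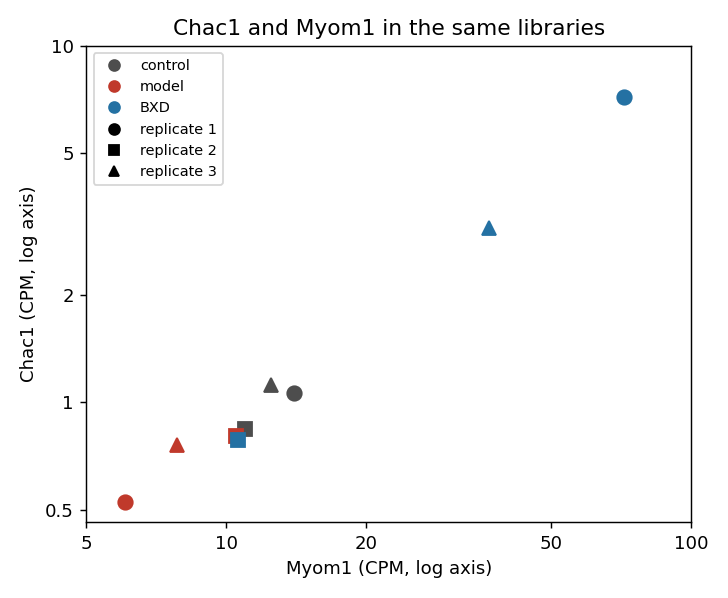
Chac1 against Myom1 in CPM on log axes; each point is a library, coloured by group and shaped by replicate. BXD replicates 1 and 3 lie at the upper right, at 7.18 and 3.09 CPM of Chac1, while BXD replicate 2 lies among control and model libraries.

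For the other 8 members the intervals show how large a difference these libraries could have hidden. The 95% interval of the log2 fold change between BXD and model was -0.22 to 0.20 for Atf6, -0.22 to 0.31 for Ern1, -0.28 to 0.44 for Eif2ak3, -0.38 to 0.45 for Atf4, -0.14 to 0.49 for Xbp1, -0.20 to 0.55 for Ddit3, -0.53 to 0.18 for Herpud1 and -1.01 to 0.18 for Trib3. Of the 131 wider pathway genes 0 were called, 13 had an unadjusted p under 0.05 and DESeq2 called 3. These 3, named after their values were seen, were Eif2ak2, the double-stranded RNA kinase of eIF2 (log2 0.52, adjusted p 0.00351), Cbs, of cysteine synthesis (1.02, adjusted p 0.0429), and Pycr1, of proline synthesis (-0.79, adjusted p 0.0420).

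BXD libraries were last compared with control libraries, which the comparison of model with control shares. Here 5 members rose, Ern1, Atf6, Atf4, Trib3 and Herpud1, where 16.1% of all tested genes did, and Ddit3 fell, where 14.3% did, so 6 of 10 were called against 30.3% of all genes. The groups did not overlap for 8 members, where 48.6% of all genes did not. The log2 fold changes of BXD and model over control stood at 0.86 and 0.82 for Atf4, 0.53 and 0.54 for Atf6, 0.54 and 0.50 for Ern1, 0.53 and 0.71 for Herpud1, 0.82 and 1.23 for Trib3, and -0.72 and -0.89 for Ddit3. All 6 of these calls had an edgeR adjusted p of 0.0471 or less, that of Trib3 being the highest. Asns was 1.53-fold higher in BXD than in control but missed the threshold (adjusted p 0.0637), as did Eif2ak3 (-0.43, adjusted p 0.0722), Chac1 (1.86, adjusted p 0.0561) and Xbp1 (0.25, adjusted p 0.207).

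With BXD replicate 2 as the only BXD library the spread comes from the control and model libraries alone, and the lone library is assumed to vary like them. Under that assumption Ern1, Atf6 and Atf4 were called higher and Ddit3 lower, where 8.73% and 6.66% of all tested genes were, and the log2 fold changes of Trib3 (0.57, adjusted p 0.311) and Herpud1 (0.43, adjusted p 0.140) were not called. Without BXD replicate 1 alone, 3 members likewise rose, where 16.4% of all tested genes did. With library size alone 2 members rose and 2 fell, where 9.36% and 24.6% of all tested genes did. Among the fits that left out 1 library, the Trib3 call held only when model replicate 2 or model replicate 3 was absent, and the Herpud1 call was lost without any control library, BXD replicate 1 or BXD replicate 2. Of the 131 wider pathway genes 35 (26.7%) rose and 12 (9.16%) fell in BXD against control, beside 16.1% and 14.3% of all tested genes. Ppp1r15a, the stress-induced regulator of the eIF2 phosphatase, chosen after its values were seen, had 62.7, 52.5 and 49.7 CPM in control, 133, 104 and 94.7 in model and 276, 109 and 83.0 in BXD. All immersed libraries were above all controls, with an edgeR adjusted p of 0.0192 in BXD and 0.0623 in model. Atf3, another stress-induced factor named for the same reason, was also highest in BXD replicate 1, at 137 CPM against 18.5 to 54.9 elsewhere, and was called in neither comparison (adjusted p 0.147 in BXD and 0.295 in model). BXD replicate 1 was thus the highest library for Atf4, Chac1, Atf3 and Ppp1r15a, and it had the highest sum of skeletal muscle genes. BXD replicate 3, with the next highest sum, was the lowest immersed library for Atf4 (294 CPM), Atf3 (24.7 CPM) and Ppp1r15a (83.0 CPM). The part of muscle RNA in these values was not tested.

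At a q-value under 0.05 the authors' deposited table lists 6 members higher and 2 lower in model than in control, 0 between BXD and model, and 6 higher and 1 lower in BXD than in control. It rests on the same libraries. The share of all genes under that q-value is not given here, so these counts are descriptions only. In the BXD comparison with control of the authors' deposited table, Chac1 and Asns are among the higher genes and Trib3 is not (q 0.0605).

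After each group's mean was removed, the deviations of Atf4 and Herpud1 in log2 CPM had a Pearson r of 0.89 over the 9 libraries, those of Atf4 and Atf6 0.83, and those of Eif2ak3 and Herpud1 -0.89, whereas those of Atf4 and Asns had 0.36 and those of Xbp1 and Asns -0.09. These are descriptions over libraries that share the BXD replicate 1 value, and 45 pairs were computed. By the same measure without removal of group means, the closest gene to Atf4 was PVR (r 0.996), to Atf6 Tmem5 (0.993), to Herpud1 Prpf8 (0.992), to Asns Lonp1 (0.992), to Ddit3 Chp2 (0.989), to Ern1 LOC691387 (0.987), to Trib3 Uchl5 (0.986), to Eif2ak3 Klhl20 (0.985) and to Xbp1 Rbm19 (0.939), each over 9 libraries and with candidates limited to mean levels of 10 CPM or more.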

How the data were processed

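Poly(A) RNA of rat gastric lymphatic vessel was sequenced in 9 libraries by Illumina sequencing, per the labels. Notes on processing by the submitters name HISAT2 2.2.4, Bowtie2 2.2.5 and Rnor_6.0; the counting tool was not given in the sources used here, and no strand-specific kit is named, so reads of antisense partners cannot be told apart. The authors deposited estimated counts per gene with FPKM and TPM values, per the file headers, and 88.8% of the counts were whole within a tolerance of 1e-09, among them all 90 values of the members. Log2 fold changes with p-values and q-values come from the authors' deposited table of comparisons. A further 45 columns of per-sample values were not used.

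Libraries were grouped by title. Estimated counts were rounded, filtered with filterByExpr (14643 of 18964 genes kept), scaled by trimmed means of M-values (factors 0.873 to 1.15) and fitted with edgeR 4.0.16 (R 4.3.3, robust quasi-likelihood, group as the only term, 9 libraries, 6 residual degrees of freedom), with p-values adjusted by Benjamini-Hochberg over all tested genes. The common biological coefficient of variation was 23.4%. SE is the log2 fold change divided by the square root of F. The scripts were checked on simulated data. Replicates differed beyond sampling noise (chi-square per degree of freedom 13.5 to 49.3), and all were kept as separate replicates. Alternatives were upper quartile scaling, library size alone, DESeq2 1.42.0, limma-voom (limma 3.58.1), no filter, limma on log2(FPKM + 1) and log2(FPKM + 0.1) for genes with FPKM of at least 0.5 in 3 libraries, only the 2 groups compared, the replicate number as a block, and each library left out. BXD replicate 2 as the only BXD library was added after the data were seen.

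The members and lists were chosen with earlier results of these data known. All members are named; from each of the 8 pathway lists up to 2 genes called higher and up to 2 called lower with the smallest p in model against control are named. For each member the gene with the highest Pearson r of log2 CPM was named. The list of 8 cardiac muscle genes, also added later, summed to 0.74 to 11.8 TPM in control and model and to 116, 1.01 and 107 in BXD. The remaining marker lists, in TPM sums over all libraries, were blood endothelium (455 to 1013), plasma cell and lymphocyte (45.3 to 185), exocrine pancreas (6.75 to 123), macrophage (481 to 714), neutrophil (75.1 to 221), fibroblast (6314 to 17673) and nerve and glia (344 to 761). The study's omeprazole group was not analysed here.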

Additional observations from a re-analysis of the deposited data

How the results depend on the processing

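Between model and control the members' directions held under all settings except for Xbp1, which was not called and whose log2 fold change of 0.07 became -0.057 with library sizes scaled by upper quartiles, -0.20 with library size alone, -0.19 in the fit of log2(FPKM + 1) and -0.20 in that of log2(FPKM + 0.1), and lay between -0.022 and 0.16 with 1 library left out. The count of members lower in model, 2, was 1 to 2 with 1 library left out. Wider pathway genes called higher, 38, were 25 with library size alone. Those called lower, 11, were 20 with upper quartiles, 29 with library size alone and 29 in each FPKM fit, and 6 to 12 with 1 library left out. Of all tested genes, 11.1% were called higher and 33.5% lower with library size alone, and 26.8% lower with upper quartiles.

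Between BXD and model the 9 genes called were 1129 with DESeq2, 3 with limma-voom, 16 without a filter, 28 and 32 in the FPKM fits with pseudocounts 1 and 0.1, 1 with only the 2 groups compared and 4 with BXD replicate 2 as the only BXD library, a lone library assumed to vary like the other groups. With 1 library left out they were 1 to 154, the highest without BXD replicate 1, and 112 without BXD replicate 2. DESeq2 called 1 member higher, Chac1, and of the wider pathway 2 genes higher and 1 lower. With 1 library left out, 0 to 1 members (Chac1, without BXD replicate 2) and 0 to 1 wider pathway genes (Eif2ak2, without BXD replicate 1) were called higher. Chac1 did not pass the filter with only those 2 groups and has no value there. Fold changes near 0 changed sign: Atf6, at -0.01, was 0.050 with library size alone, 0.045 and 0.048 in the FPKM fits and 0.0023 with only the 2 groups compared, and -0.082 to 0.034 with 1 library left out. Under that last setting Eif2ak3 spanned -0.038 to 0.22, Ern1 -0.032 to 0.13 and Atf4 -0.20 to 0.19, and with BXD replicate 2 as the only BXD library Atf4 was -0.082.

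Between BXD and control the 5 members called higher were 3 with upper quartiles, 2 with library size alone, 2 in each FPKM fit and 3 with BXD replicate 2 as the only BXD library, and 3 to 6 with 1 library left out. The 1 called lower was 2 with upper quartiles, library size alone and both FPKM fits. Of all tested genes 12.0% were called higher and 20.2% lower with upper quartiles, and 9.36% and 24.6% with library size alone. In the fit of log2(FPKM + 1) these shares were 8.83% and 25.5%. All genes called, 4444, were 2352 with BXD replicate 2 as the only BXD library and 2728 to 4775 with 1 library left out. Wider pathway genes called higher, 35, were 21 with library size alone, 20 in each FPKM fit and 22 to 40 with 1 library left out. Those called lower, 12, were 21 with upper quartiles, 23 with library size alone and in both FPKM fits, 1 with BXD replicate 2 as the only BXD library and 6 to 13 with 1 library left out. Chac1, at 1.86, was -0.35 with BXD replicate 2 as the only BXD library. The cause of these shifts was not tested.

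The replicate numbers did not pair the libraries: deviations of same-numbered libraries correlated at -0.43 to 0.09. With the replicate number as a block, members called lower in model were 1, without Eif2ak3 (adjusted p 0.0568), members called higher in BXD against control were 3, wider pathway genes called lower there were 7, Syvn1 was not called in model (-0.59, adjusted p 0.0612), and 1 gene in all was called between BXD and model. Counts of 6 to 86 limit what can be said of Chac1, and 3 libraries per group limit the rest.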
